A study of Homo sapiens with 9 samples.

Results

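The genes described here are those whose expression moved the same way in every array when BAP1 was targeted in U2OS cells with either of 2 hairpins. The equal-weight mean of the shBAP1 #1 and shBAP1 #2 groups (3 arrays each) was set against 3 shControl arrays. A gene was called separated where all 6 shBAP1 arrays lay above, or all lay below, all 3 control arrays. Of 19775 genes measured, 3685 (18.6%) were separated, 1901 (9.61%) of them raised and 1784 (9.02%) lowered. All 9 arrays of the study entered this comparison.

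The question was which transcripts need BAP1. U2OS is a human osteosarcoma line with wild-type p53 and no working p16. Every group, control included, received an RNA-interference plasmid by lipid transfection, went through puromycin selection, and was held at the G1/S border by a double thymidine block before RNA extraction. The 3 groups differed in the plasmid: shControl carried a hairpin without a human target, and the other two carried hairpins directed at BAP1. RNA was made into biotinylated cRNA and read on Affymetrix oligonucleotide arrays. The cells were selected pools, and whether the 3 arrays of a group stand for separate cultures is not said in the labels. P-values therefore cover only the spread between these arrays, which may be technical. The level of the BAP1 transcript was not analysed here, so the labels were not checked by the target.

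BAP1, a tumour suppressor, is a deubiquitinase of the nucleus that removes ubiquitin from histone H2A, opposing Polycomb repressive complex 1, and works in complexes with the cofactor HCF-1, the glycosyltransferase OGT, ASXL proteins and the DNA-binding factor YY1. HCF-1 also joins E2F factors at promoters of genes that cells need to enter S phase. E2F sites control genes of the G1/S border, whereas many genes that peak in G2 and mitosis carry a CHR element and CCAAT boxes that bind NF-Y.

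Promoters of 4 lowered genes that the results turn on are shown with the motif letters that a search on both strands found, in capitals. The 4 motifs marked wherever they occur are E2F as TTTNNCGC, CHR as TTTGAA, NF-Y as CCAAT, and the ZNF143 core as CTACANTTC. The genes represent S-phase entry (MCM6 and ZNF367), mitosis (CCNB2) and respiration (COX7C). The sequences are from RefSeq on GRCh38.p14 and read 5′ to 3′ on the gene's strand. The MCM6 stretch is at chr2:135876484-135876603 on the minus strand, the ZNF367 stretch at chr9:96418371-96418570 on the minus strand, the CCNB2 stretch at chr15:59104946-59105145 on the plus strand and the COX7C stretch at chr5:86617791-86617910 on the plus strand. All 4 lie upstream of the annotated start.
MCM6: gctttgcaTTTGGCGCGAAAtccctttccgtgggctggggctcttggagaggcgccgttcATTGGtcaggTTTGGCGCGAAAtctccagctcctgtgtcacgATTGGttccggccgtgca
ZNF367: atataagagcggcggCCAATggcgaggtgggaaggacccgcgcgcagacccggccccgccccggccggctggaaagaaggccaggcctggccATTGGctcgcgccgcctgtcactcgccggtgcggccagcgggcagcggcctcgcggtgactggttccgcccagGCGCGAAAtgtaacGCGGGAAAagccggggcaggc
CCNB2: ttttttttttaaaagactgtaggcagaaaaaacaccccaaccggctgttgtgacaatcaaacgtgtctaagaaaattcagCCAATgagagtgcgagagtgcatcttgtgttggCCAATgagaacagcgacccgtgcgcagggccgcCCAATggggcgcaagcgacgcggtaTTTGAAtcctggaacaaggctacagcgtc
COX7C: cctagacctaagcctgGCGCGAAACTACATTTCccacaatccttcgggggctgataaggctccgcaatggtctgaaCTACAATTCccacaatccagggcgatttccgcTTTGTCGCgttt

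MCM6 held 2 overlapping pairs of E2F matches, one on each strand and sharing 4 bases, that begin 152 and 90 bases upstream of the start, with CCAAT matches at 100 and 58. ZNF367 held E2F matches at 35 and 21 bases upstream and CCAAT matches at 185 and 108. CCNB2 held its CHR match at 29 bases and CCAAT matches at 120, 87 and 54 bases upstream. COX7C held the ZNF143 core at 126 and 74 bases upstream and E2F matches at 134 and 42, the first of them directly before a ZNF143 core. A match is a description of the letters and not a bound site.

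Array medians lay between 5.40 and 5.45 log2 units, and 0 pairs of arrays held identical values. Replicate 1 of shBAP1 #2 lay nearer to the controls (mean r over probe sets 0.989) than its replicates 2 and 3 (0.981 each). Without it, 4018 genes were separated. The 3′ minus 5′ difference of actin probe sets, which reflects RNA integrity, was 0.47 to 0.51 log2 units in the controls and 0.39 to 0.46 in the shBAP1 arrays. It thus separated as the genes described here do. The same difference of GAPDH probe sets was -0.06 to -0.02 in the controls and -0.05 to -0.03 in the shBAP1 arrays, which overlapped. The part of either difference in the results was not tested.

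limma with Benjamini-Hochberg adjustment called 5679 genes (28.7%) for the mean of both shRNAs, 2788 raised (14.1%) and 2891 lowered (14.6%), at an adjusted p under 0.05. With the 6 shBAP1 arrays taken as 1 group, so that the difference between the hairpins counted as spread, it called 2149, and 38 of the 140 genes named below lost their call. Among the separated genes 3363 (91.3%) were called. A further 2316 genes were called without being separated. In 1244 of these the shBAP1 #2 arrays alone cleared the controls, in 782 the shBAP1 #1 arrays alone did, and in 257 the groups cleared them on opposite sides. Below, "rose" and "fell" are used of genes called by limma for the mean of both shRNAs, and ± gives the standard error (SE) of the fit over 3 arrays a group. Counts of list members that rose or fell stand against the shares over all genes, 14.1% and 14.6%. These shares are low for lists of bright genes, since 7027 of all genes (35.5%) lay below the median of all probe sets (5.44). With those left out, limma called 2759 raised and 2906 lowered among fewer genes, so both shares were higher. All 27 Polycomb genes and 45 of 46 deubiquitinase genes, for example, were at or above that median.

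The separated genes changed by a median log2 difference of 0.42 (raised) and -0.49 (lowered), against 0.01 over all genes. A difference of at least 1 log2 unit in size was reached by 124 raised and 176 lowered genes. The gap, the distance from the nearest shBAP1 array to the nearest control array, had a median of 0.13 in the raised and 0.15 in the lowered genes, and 686 raised and 649 lowered genes had a gap of at least 0.2. Separation followed the level: with genes ranked by mean expression and cut into 4 equal bins, 4.03% were separated in the dimmest bin, 9.85% and 26.4% in the next ones and 34.3% in the brightest. Non-coding RNA genes, most of them dim, made up 5.13% of separated genes and 13.4% of all genes.

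**Figure D1:**
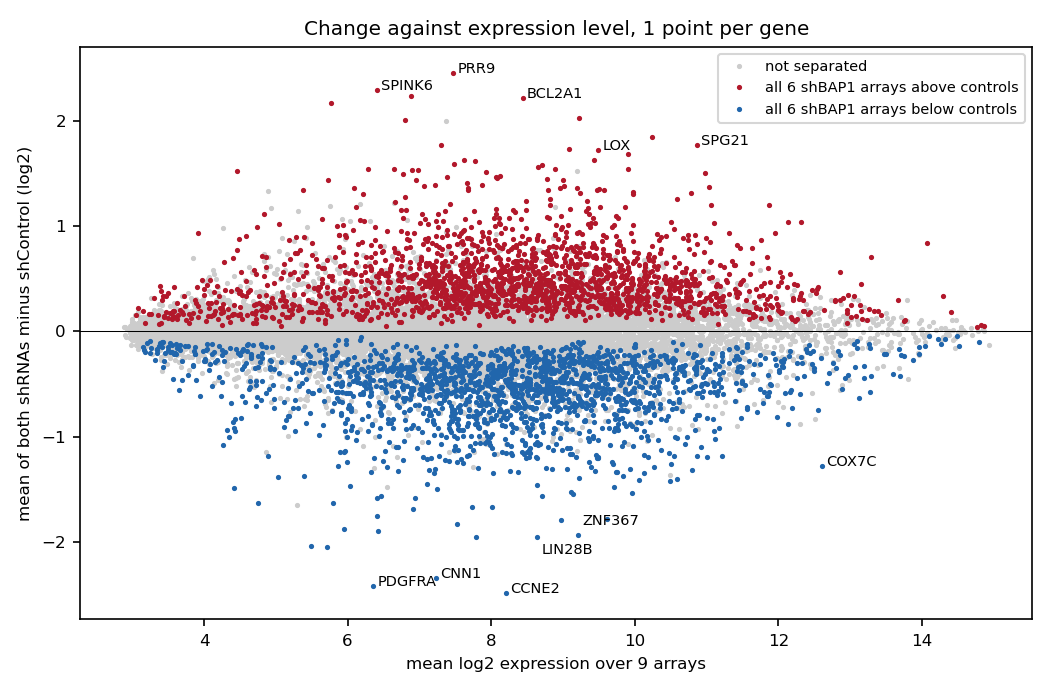
Mean of both shRNAs minus shControl (log2) against the mean log2 expression over 9 arrays, 1 point per gene; red points are the 1901 genes with all 6 shBAP1 arrays above the controls, blue points the 1784 with all below, and grey points are not separated. CCNE2, PDGFRA and CNN1 lie lowest and PRR9, SPINK6 and BCL2A1 near the top, and most genes at the dim left edge are grey.

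At the edge of the rule, CAMK2N1, RENBP and LOC101928708 among raised genes and FBXO11, OTUB1 and AP5S1 among lowered genes had gaps that rounded to 0.00. Just outside were 169 genes whose nearest arrays held the same value, such as ADAM22, AHSP, ABI3BP and ADAM15. The separation was also read in probe sets that the rule left out. Of 2576 further probe sets of separated raised genes, 810 (31.4%) were separated upward and 37 downward. Of 2429 of separated lowered genes, 741 (30.5%) were separated downward and 33 upward. Over all 21322 further probe sets the shares were 7.56% upward and 6.54% downward. At or above the median level, 46.2% and 42.3% of these further probe sets repeated the direction.

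Regulators of the G1/S step moved in both directions. CCNE2, cyclin E2, which activates CDK2 for S-phase entry, read 10.02, 9.61 and 9.98 in the controls, 7.12, 7.32 and 7.80 with shBAP1 #1 and 8.08, 6.89 and 7.10 with shBAP1 #2. The groups did not overlap, and the nearest shBAP1 array was the replicate 1 of shBAP1 #2. CCNE2 fell by 2.49 ± 0.24 on the log2 scale, 5.60-fold, the widest fall of the 19775 genes (adjusted p = 5.2e-05). Its other named probe set fell by 2.39.

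SKP2, the F-box protein that targets the CDK inhibitor p27 for destruction, read 11.07, 10.83 and 11.06 in controls and 8.78 to 10.11 in shBAP1 arrays, a difference of -1.54 ± 0.20. The pocket protein RBL1 (p107) changed by -1.05 ± 0.16, the CDK-activating phosphatase CDC25A by -0.93 ± 0.11 and the activator E2F1 by -0.58 ± 0.08. For each of these 4 genes every shBAP1 array lay below every control array. E2F2 fell too (-0.88 ± 0.25, adjusted p = 0.022) but was not separated: 2 of its shBAP1 #1 arrays (8.72 and 8.92) lay above the highest control (8.65). That call was lost without shControl replicate 1 (adjusted p = 0.085) and without shControl replicate 3 (0.086).

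Other members of the list rose. CCND2, cyclin D2, a G1 cyclin that activates CDK4 and CDK6, read 11.11, 11.06 and 11.03 in controls, 12.26, 12.33 and 12.18 with shBAP1 #1 and 12.11, 12.38 and 12.35 with shBAP1 #2. Both groups stood clear of the controls by about the same distance, with a difference from control of 1.20 ± 0.07. A second bright CCND2 probe set gave 0.29 and was not separated, and the other 2 gave 1.40 and 1.24 and were. E2F5, a repressor E2F, rose by 1.53 ± 0.12, and CDKN1A, the p21 inhibitor of CDK2, by 0.79 ± 0.06. CCND1, cyclin D1, rose by 0.62 ± 0.08 on average without separating: shBAP1 #1 arrays read 8.77 to 9.09 and controls 8.76 to 8.87, while shBAP1 #2 arrays read 9.85 to 10.05. Of 30 members measured, 12 fell and 7 rose, and the list's median was -0.09.

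The machinery that licenses and opens replication origins fell almost as a whole. Of 28 members measured, 27 fell and 0 rose, and 21 were separated downward against 9.02% of all genes. Their median was -0.78. The list median read -0.60, -0.77 and -0.42 in the shBAP1 #1 arrays and -0.64, -1.02 and -1.06 in the shBAP1 #2 arrays, relative to the control mean, and -0.11 to 0.06 in the controls.

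GINS4, a subunit of the GINS complex of the replicative helicase, read 10.20, 10.01 and 10.29 in controls, 8.11, 8.77 and 9.48 with shBAP1 #1 and 8.31, 7.82 and 7.72 with shBAP1 #2. All shBAP1 arrays were lower, replicate 3 of shBAP1 #1 the least so, and the difference was -1.80 ± 0.25 (3.47-fold, adjusted p = 0.00037). WDHD1, which couples the helicase to polymerase alpha, changed by -1.67 ± 0.21, the helicase activator CDC45 by -1.40 ± 0.23, and CDC6, which loads the MCM ring on origins, by -1.38 ± 0.17.

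MCM6, a ring subunit whose promoter is printed above, read 11.78, 11.65 and 11.60 in controls, 11.05, 10.91 and 11.26 with shBAP1 #1 and 10.14, 9.40 and 9.38 with shBAP1 #2. It fell with both hairpins and further with shBAP1 #2, and the mean difference was -1.32 ± 0.16. MCM2 (-0.93 ± 0.21) and MCM7 (-0.55 ± 0.12) fell as well but were not separated, since replicate 3 of shBAP1 #1 (11.17 and 10.68) reached into the control range.

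The same held for the replication fork. Among DNA polymerase, clamp and chromatin assembly genes 27 of 30 fell, 0 rose, and 17 were separated, with a median of -0.67. POLE2, a subunit of leading-strand polymerase epsilon, read 10.73, 10.61 and 10.73 in controls, 9.22, 9.30 and 9.58 with shBAP1 #1 and 9.54, 8.80 and 8.85 with shBAP1 #2, a difference of -1.48 ± 0.15. The groups were apart by more than 1 log2 unit. The fork-protection factor TIPIN (-1.20 ± 0.16) and the primase subunit PRIM1 (-1.18 ± 0.20) followed. The sliding clamp PCNA changed less (-0.42 ± 0.09) and was separated all the same, because its control arrays read 12.55 to 12.69 and its shBAP1 arrays 12.01 to 12.41. UHRF1, which carries DNA methylation over to new strands, fell by 1.04 ± 0.20 without separating.

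Genes for deoxynucleotide supply were mixed: 7 of 16 fell (4 without shControl replicate 1), 1 rose and the median was -0.20. RRM1, the large subunit of ribonucleotide reductase, changed by -1.07 ± 0.13, thymidylate kinase DTYMK by -1.13 ± 0.14 and thymidine kinase TK1 by -0.80 ± 0.12, all separated. The small subunit RRM2 read 12.91 to 13.16 in controls, 12.78 to 13.40 with shBAP1 #1 and 12.05, 11.02 and 10.90 with shBAP1 #2. RRM2 therefore overlapped with the controls in shBAP1 #1 only, and its mean difference of -0.83 ± 0.23 (adjusted p = 0.020) came from the other hairpin. Without shControl replicate 1 or 3 that call was lost (adjusted p = 0.083 and 0.075). RRM2B, the p53-induced small subunit, rose by 0.66 ± 0.12 and was separated upward.

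Homologous recombination and checkpoint genes fell in 19 of 26 cases and rose in 0, with 13 separated and a median of -0.45. The checkpoint kinase CHEK1 read 9.27, 9.19 and 9.25 in controls, 7.71, 7.77 and 8.11 with shBAP1 #1 and 8.38, 8.25 and 8.21 with shBAP1 #2. Its difference was -1.17 ± 0.09, and it was lower with shBAP1 #1 than with shBAP1 #2. The nuclease EXO1 (-1.56 ± 0.32), the helicase BRIP1 (-1.18 ± 0.19) and BRCA1 (-1.12 ± 0.18), which BAP1 was named for binding, were separated too.

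Of 13 genes of the Fanconi anaemia pathway, which repairs DNA crosslinks, 9 fell and 1 rose, with 7 separated downward and a median of -0.59. USP1, the deubiquitinase that resets the pathway, changed by -1.15 ± 0.13 and the core-complex member FANCG by -1.11 ± 0.20. FANCI fell by 1.14 ± 0.24 without separating. FANCF, another core member, went the other way. It read 6.85, 7.11 and 6.97 in controls, 7.96 ± 0.05 with shBAP1 #1 and 7.93 ± 0.06 with shBAP1 #2 (SD, n = 3), no array under 7.88, so that the 6 values lay within a narrow band above the controls, a rise of 0.96 ± 0.07.

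Of 45 genes of G2 and mitosis 32 fell and 0 rose, with 18 separated and a median of -0.67. The hairpins differed here: the median of the list reached -0.22 in the shBAP1 #1 group and -1.12 in the shBAP1 #2 group, and 37 of 45 members differed between them by limma (adjusted p under 0.05), against 34.7% of all genes. HMMR, a spindle-associated hyaluronan receptor, read 10.15, 10.10 and 10.13 in controls, 8.87, 9.05 and 8.98 with shBAP1 #1 and 8.91, 7.74 and 8.05 with shBAP1 #2, a difference of -1.53 ± 0.20. It was among the widest gaps of the data.

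The proliferation antigen MKI67 changed by -1.21 ± 0.25, the mitotic kinase CDK1 by -1.01 ± 0.14, and the chromosomal passenger survivin, BIRC5, by -1.18 ± 0.13. CCNB2, a B-type cyclin whose CHR and CCAAT letters are printed above, read 11.14, 11.08 and 11.27 in controls, 10.28, 10.11 and 10.58 with shBAP1 #1 and 10.79, 10.40 and 10.29 with shBAP1 #2. It was lower in every shBAP1 array (-0.76 ± 0.12), and shBAP1 #2 minus shBAP1 #1 was 0.17 with a 95% interval of -0.15 to 0.49. In RNA from whole cultures, fewer cells at a stage and less RNA per cell cannot be told apart.

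**Figure D2:**
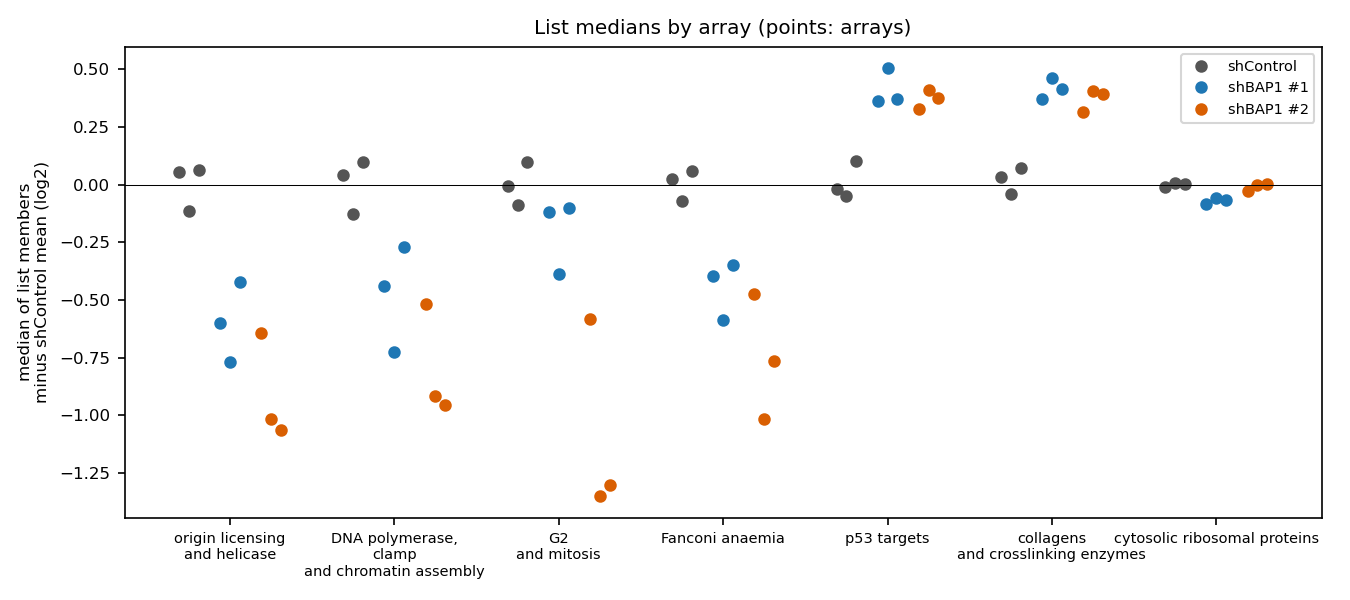
Median over list members of each array's log2 value minus the control mean, for 7 gene lists; 1 point per array, grey for shControl, blue for shBAP1 #1 and orange for shBAP1 #2. In the 4 replication, mitosis and Fanconi lists the shBAP1 points lie below 0, replicate 1 of shBAP1 #2 above its other replicates, while the p53 and collagen points lie between 0.31 and 0.50 with both hairpins.

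ZNF367, a zinc-finger protein of the cell cycle that was on none of the lists, had one of the widest gaps below the controls (1.61). It read 10.48, 10.45 and 10.57 in controls, 8.75, 8.34 and 8.84 with shBAP1 #1 and 8.64, 8.32 and 8.50 with shBAP1 #2. All shBAP1 values fell within 1 narrow range (difference -1.94 ± 0.11, adjusted p = 3.5e-06), and the hairpins differed by -0.15 with an interval of -0.44 to 0.13.

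Targets of p53 rose in 16 of 27 cases and fell in 2, with 13 separated upward, 2 downward and a median of 0.45. In contrast to the mitotic list, the per-array medians were alike, 0.36 to 0.50 with shBAP1 #1 and 0.33 to 0.41 with shBAP1 #2. Single members were less alike: 14 of the 27 differed between the hairpins by limma, against 34.7% of all genes. TP53INP1, a stress-induced cofactor of p53 and autophagy, read 7.91, 8.03 and 7.65 in controls, 9.26, 9.43 and 9.16 with shBAP1 #1 and 9.25, 9.66 and 9.70 with shBAP1 #2. It rose by 1.55 ± 0.12 with no overlap. The death receptor TNFRSF10B rose by 1.32 ± 0.07, GADD45A, which inhibits CDK1, by 0.86 ± 0.12, and MDM2, the ligase that turns p53 over, by 0.61 ± 0.12. SESN2, a stress-induced inhibitor of mTORC1 signalling, rose by 0.72 ± 0.08 and ZMAT3, an RNA-binding p53 target, by 0.53 ± 0.07. BAX, the pore-forming death protein, fell instead (-0.66 ± 0.17). Its call was lost without shControl replicate 1 or 3 (adjusted p = 0.079 and 0.066).

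The BCL2 family and caspases were split, with 11 of 26 up and 5 down. Without shControl replicate 1 the number up was 6, and without shControl replicate 3 the number down was 3. BCL2A1, a survival protein under NF-kappaB control, read 6.68, 6.84 and 7.37 in controls, 8.54, 9.19 and 8.84 with shBAP1 #1 and 9.13, 9.61 and 9.76 with shBAP1 #2. Even the highest control lay more than 1 log2 unit below the lowest shBAP1 array, and BCL2A1 rose by 2.22 ± 0.19 (4.65-fold, adjusted p = 2.7e-05). The pore-former BAK1 rose by 0.74 ± 0.09 and the caspase-8 inhibitor CFLAR by 0.62 ± 0.07, whereas BCL2L11 (BIM) fell by 0.74 ± 0.12. CFLAR was read by a probe set shared between transcripts, and its call was lost in probe sets without that suffix (0.54, adjusted p = 0.091).

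**Figure D3:**
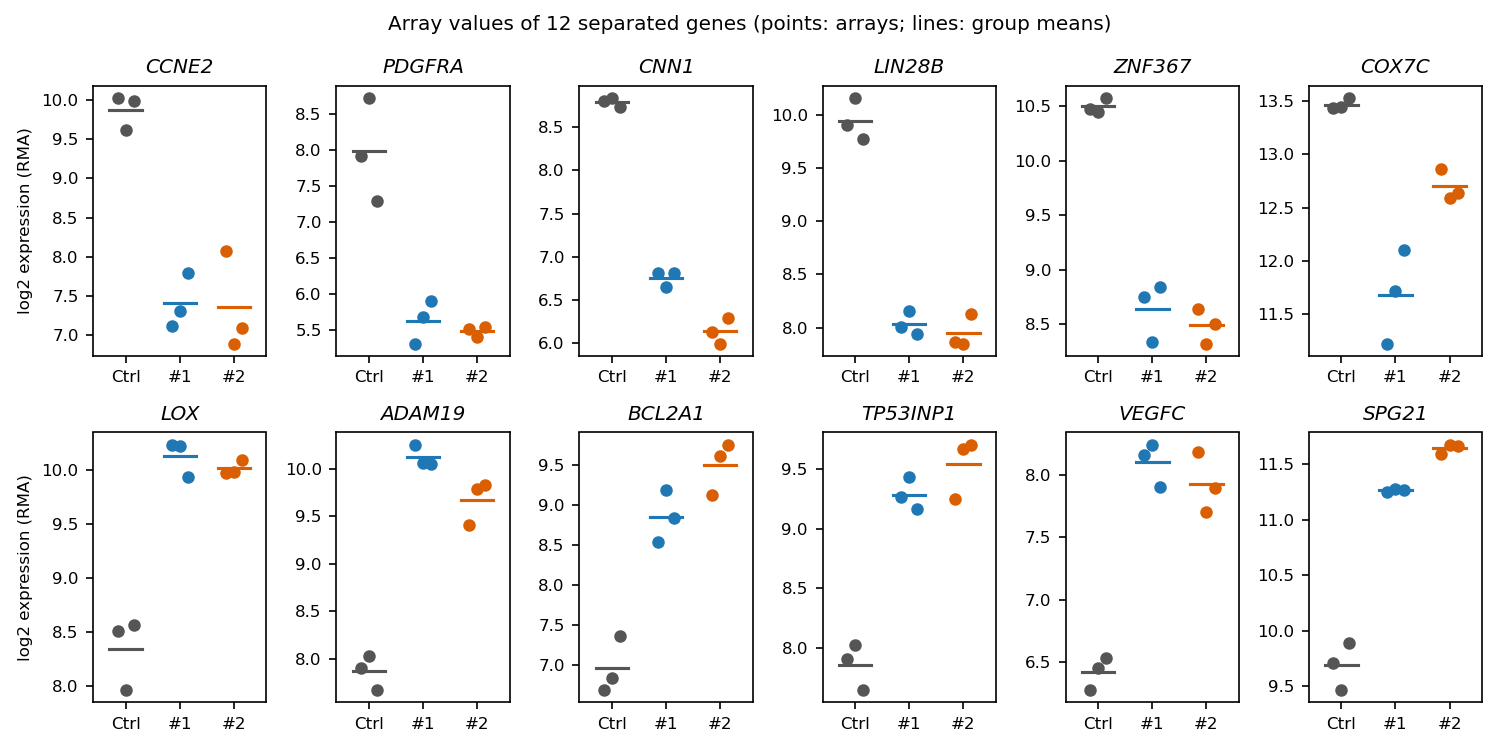
Log2 expression of 12 separated genes in each array, shControl (Ctrl, grey), shBAP1 #1 (blue) and shBAP1 #2 (orange); points are arrays, lines are group means, and each panel has its own scale. In every panel all 6 shBAP1 points lie on one side of the controls, with little between the hairpins for CCNE2, LIN28B and LOX and a lower shBAP1 #1 for COX7C.

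Extracellular matrix genes made up another raised group. Of 31 collagens and crosslinking enzymes 19 rose and 3 fell, with 13 separated upward, 1 downward and a median of 0.39. Their per-array medians lay between 0.31 and 0.46 in the 6 shBAP1 arrays. Even so, 22 of the 31 differed between the hairpins by limma, against 34.7% of all genes. Without probe sets whose suffix marks shared probes the median was 0.13. LOX, lysyl oxidase, which crosslinks collagen and elastin, read 8.51, 7.96 and 8.56 in controls, 10.23, 10.22 and 9.93 with shBAP1 #1 and 9.97, 9.98 and 10.09 with shBAP1 #2. LOX rose by 1.73 ± 0.13 (3.31-fold, adjusted p = 1.3e-05) to the same level with both hairpins (difference between them -0.11, interval -0.44 to 0.21). Its other 2 probe sets rose by 1.71 and 1.84.

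COL22A1, a collagen of tissue junctions, rose by 2.00 ± 0.14 in its brightest probe set, while its others gave 0.45 and 0.15 and were not separated. In those others the shBAP1 #2 arrays lay above the shBAP1 #1 arrays, the reverse of the hairpin difference in the brightest probe set. P4HA2, which hydroxylates prolines of collagen, rose by 1.03 ± 0.06. COL5A2, a fibril-regulating chain, read 6.75 to 7.06 in controls, 9.06 to 9.36 with shBAP1 #1 and 7.60 to 7.65 with shBAP1 #2. It was separated (1.52 ± 0.09) but far higher with the first hairpin. COL3A1 showed the same order and was not separated (5.01 in replicate 1 of shBAP1 #2 against 4.74 to 5.10 in controls). COL3A1 was read by a shared probe set, and by the others the difference was -0.04 (adjusted p = 0.79). COL8A1, a short-chain collagen, fell by 0.67 ± 0.08.

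Among matrix glycoproteins and proteoglycans 14 of 34 rose and 3 fell, with 8 separated upward and 2 downward. MFAP5, a microfibril glycoprotein, rose by 1.68 ± 0.18 and fibrillin-2, FBN2, by 1.09 ± 0.06. Fibronectin, FN1, read 10.34 to 10.51 in controls, 12.19 to 12.25 with shBAP1 #1 and 10.62 to 10.69 with shBAP1 #2. Every FN1 value lay above the controls, but the rise with the second hairpin was 0.25 against 1.81 with the first. The basement membrane linker NID1 fell by 0.74 ± 0.12.

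Matrix proteases and their inhibitors rose in 11 of 33 cases and fell in 4, with 9 separated upward and 1 downward. The metalloprotease ADAM19 read 7.91, 8.03 and 7.67 in controls, 10.25, 10.06 and 10.05 with shBAP1 #1 and 9.40, 9.78 and 9.83 with shBAP1 #2, a rise of 2.03 ± 0.11 (4.08-fold). A second, dim ADAM19 probe set gave -0.11 and was not separated. The kallikrein inhibitor SPINK6 rose by 2.29 ± 0.24, stromelysin MMP3 by 1.51 ± 0.23 and ADAM12 by 1.20 ± 0.07. ADAMTS3, a procollagen-processing protease, was the separated exception and fell by 1.83 ± 0.12 with both hairpins alike (difference -0.04, interval -0.34 to 0.27).

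Genes of the smooth muscle and serum response factor programme rose in 12 of 20 cases and fell in 4 (9 separated upward, 2 downward), but their best-known markers parted. CNN1, calponin, had the widest gap of all genes below the controls. It read 8.80, 8.84 and 8.74 in controls, 6.81, 6.64 and 6.81 with shBAP1 #1 and 6.12, 5.99 and 6.29 with shBAP1 #2. The 3 groups did not overlap with each other, and CNN1 fell by 2.35 ± 0.07 (5.08-fold, adjusted p = 2.8e-07).

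ACTA2, smooth muscle actin, rose in contrast. It read 7.73, 7.67 and 7.59 in controls, 9.80, 9.99 and 9.45 with shBAP1 #1 and 8.73 in each array of shBAP1 #2, a rise of 1.58 ± 0.10. TAGLN, transgelin, rose by 1.45 ± 0.17 with 2.31 from the first hairpin and 0.60 from the second. Its probe sets did not give 1 answer, since one other gave 1.87 and was separated and a second gave 0.06 and was not. MRTFB, a coactivator of serum response factor, fell by 0.70 ± 0.10.

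Of 41 growth factors and their receptors 11 rose and 5 fell, with a median of 0.09. Without shControl replicate 2 the number that rose was 7, and without shControl replicate 1 the number that fell was 3. PDGFRA, the platelet-derived growth factor receptor alpha of mesenchymal cells, read 7.92, 8.71 and 7.29 in controls, 5.31, 5.68 and 5.89 with shBAP1 #1 and 5.51, 5.39 and 5.54 with shBAP1 #2. The controls spread over more than 1 log2 unit, yet the lowest of them stood above all shBAP1 arrays, and PDGFRA fell by 2.42 ± 0.25 (5.35-fold, adjusted p = 6.9e-05). A dimmer PDGFRA probe set fell by 0.65 and was separated.

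VEGFC, the lymphatic growth factor, read 6.28, 6.45 and 6.53 in controls, 8.16, 8.24 and 7.90 with shBAP1 #1 and 8.18, 7.70 and 7.90 with shBAP1 #2. It rose by 1.59 ± 0.11, and the hairpins overlapped with each other and not with the controls. FGF5 rose by 0.91 ± 0.14 and was separated. PDGFC, a ligand of PDGFRA, was called (1.52 ± 0.20) but not separated: with shBAP1 #2 it read 8.42 to 8.95 against 7.70 to 8.79 in controls, and with shBAP1 #1 10.69 to 10.96. Integrin and focal adhesion genes rose in 6 of 28 cases and fell in 3, against 14.1% and 14.6% of all genes. The scaffold PXN (0.88 ± 0.07) was up and the actin linker TNS3 (-1.08 ± 0.16) down.

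ERK feedback inhibitors were separated upward in 5 of 18 cases and downward in 0, DUSP7 rising by 0.66 ± 0.06 and SPRY2 by 0.59 ± 0.06. AP-1 and immediate early genes were separated upward in 3 of 19 cases and downward in 0. KLF6 read 8.19 to 8.99 in controls, 9.04 to 9.42 with shBAP1 #1 and 10.08 to 10.49 with shBAP1 #2, a rise of 1.18 ± 0.16, and the AP-1 subunit FOSL2 rose by 0.79 ± 0.07. NF-kappaB and inflammatory genes rose in 13 of 27 cases (8 without shControl replicate 1) and fell in 1, with 6 separated upward and 1 downward, among them BCL2A1 and, at 0.56 ± 0.07, the NF-kappaB subunit RELB.

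Interferon-stimulated genes were separated in 3 of 34 cases upward and 1 downward, against 9.61% and 9.02% of all genes. The upward share was near that background and the downward share below it. TAP1, the antigen peptide transporter, rose by 1.08 ± 0.06. In the TGF-beta and BMP list 7 of 27 rose and 5 fell, and the number that fell was 3 without shControl replicate 2 and 8 without shBAP1 #2 replicate 1. INHBA, the activin subunit, rose by 1.34 ± 0.15, BMP2 by 0.89 ± 0.09 and the receptor TGFBR2 by 0.63 ± 0.09. Of 23 YAP and TEAD targets 4 rose and 9 fell, with a median of -0.07. The number that fell was 4 without shControl replicate 2 and 5 without shControl replicate 1 or 3.

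LIN28B, which blocks maturation of let-7 miRNAs and is an oncofetal gene, read 9.91, 10.16 and 9.77 in controls, 8.01, 8.16 and 7.94 with shBAP1 #1 and 7.86, 7.85 and 8.12 with shBAP1 #2. The shBAP1 arrays of both hairpins lay in the same range, more than 1 log2 unit under the controls, and LIN28B fell by 1.96 ± 0.10 (3.88-fold, adjusted p = 2.3e-06). HMGA2, an architectural chromatin protein and known let-7 target, fell by 1.30 ± 0.15 in its brightest probe set, which carries the suffix for shared probes. Its 8 other named probe sets, all dimmer, gave differences from -0.07 to 0.46 and none was separated.

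TNRC6C, a partner of Argonaute in silencing, rose by 1.18 ± 0.07. DICER1, which cuts miRNA precursors, fell by 0.49 ± 0.08 on average and was not separated: it changed by -1.09 with shBAP1 #1 and by 0.11 with shBAP1 #2. Over the 23 genes of LIN28, let-7 and RNA interference 4 rose, 7 fell and the median was -0.04.

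COX7C, a nuclear-encoded subunit of cytochrome c oxidase known from earlier results of these data, was lowered at a high level. It read 13.43, 13.44 and 13.53 in controls, 11.22, 11.71 and 12.10 with shBAP1 #1 and 12.86, 12.59 and 12.64 with shBAP1 #2. The groups did not overlap, and shBAP1 #1 lay below shBAP1 #2. COX7C fell by 1.28 ± 0.15 (2.43-fold, adjusted p = 0.00017), and its other probe sets gave -1.45 and -1.15. Of the 21 cytochrome c oxidase genes, COX7C included, 9 rose and 2 fell, and COX10, a haem-synthesis factor, rose by 0.50 ± 0.06. The number that rose was 4 without shControl replicate 1 or 2 and 5 without shBAP1 #1 replicate 2, shBAP1 #2 replicate 2 or shBAP1 #2 replicate 3.

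In respiratory complexes I, III and V 5 of 37 rose and 9 fell, against 14.1% and 14.6% of all genes. The small complex I subunit NDUFA1 rose by 0.79 ± 0.05 and the complex III core protein UQCRC2 fell by 0.66 ± 0.08. Glycolysis and hypoxia genes gave 4 up and 6 down of 33, shares near those of all genes. The serine synthesis enzyme PSAT1 fell by 1.31 ± 0.22, while the ATF4 and endoplasmic reticulum stress list as a whole gave 7 up and 7 down of 30, with 4 down when shControl replicate 3 was left out.

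Autophagy and lysosome genes rose in 13 of 32 cases and fell in 3, with 9 separated upward. The lysosomal protease CTSA rose by 0.64 ± 0.09 and the membrane protein LAMP2 by 0.60 ± 0.09, though a second LAMP2 probe set of near-equal level gave 0.01 and another 1.40. ATP6V1A, the catalytic subunit of the lysosomal proton pump, fell by 1.04 ± 0.10. In this list the array medians were -0.02 to 0.07 with shBAP1 #1 and 0.32 to 0.39 with shBAP1 #2.

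The mean of both hairpins hides opposite changes in a pair of lists. Cholesterol synthesis and SREBP genes had a median of 0.42 with shBAP1 #1 and -0.23 with shBAP1 #2, and NRF2 antioxidant genes -0.30 and 0.40. INSIG1, the sterol sensor, read 8.15 to 8.84 in controls, 9.33 to 9.64 with shBAP1 #1 and 4.81 to 5.58 with shBAP1 #2. Its mean difference of -1.15 ± 0.18 was called although the hairpins lay on opposite sides of the controls. SREBF1, which drives the lipid programme, fell with both (-0.92 ± 0.14). HMOX1, haem oxygenase, rose with both (0.61 ± 0.12). The peroxiredoxin PRDX1 was lower with both (-0.64 ± 0.14), but more so with shBAP1 #2 (shBAP1 #2 minus shBAP1 #1 was -0.99). The limma call of PRDX1 was lost with the 6 shBAP1 arrays taken as 1 group (adjusted p = 0.28).

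Of 16 partners of BAP1 2 rose and 5 fell, against 14.1% and 14.6% of all genes, and 2 were separated: BRCA1 and OGT. OGT read 9.55 to 9.79 in controls and 9.91 to 10.13 in shBAP1 arrays, a rise of 0.29 ± 0.07 (adjusted p = 0.012) whose call was lost without shControl replicate 3 (0.061). Polycomb genes gave 9 up and 7 down of 27. The number up was 3 without shControl replicate 2, 4 without shControl replicate 1 and 5 without shControl replicate 3. SUZ12, a core subunit of Polycomb repressive complex 2, read 10.28, 10.31 and 10.42 in controls and 9.32 to 9.63 in the shBAP1 arrays, a difference of -0.83 ± 0.07, and its partner EED fell by 0.68 ± 0.07, a call lost in an EED probe set without the suffix for shared probes (-0.15, adjusted p = 0.56). PCGF5, of variant repressive complex 1, fell by 1.05 ± 0.09. Among its other probe sets above the median level one gave -1.14 and was separated, and those with -0.46 and 0.08 were not. CBX6, a chromobox reader, rose by 0.51 ± 0.06.

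HOX genes and their partners, classical Polycomb targets, gave 2 up and 8 down of 26. MEIS2 fell by 0.94 ± 0.18 and HOXB2 rose by 0.45 ± 0.06. PBX2 fell by 0.77 ± 0.07 in a shared probe set, while its others gave -0.41, 0.01 and 0.03. Of the deubiquitinase family to which BAP1 belongs 15 of 46 fell and 6 rose, 11 and 4 of them separated. USP37, which stabilises cyclin A, fell by 1.06 ± 0.13. USP22, of the SAGA complex, rose by 0.68 ± 0.05 in its brightest probe set, while a dim USP22 probe set fell by 0.94 and was separated.

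Histone H2AX changed by -1.01 ± 0.17 and SLBP, which matures replication-dependent histone transcripts, by -0.88 ± 0.12. Cytosolic ribosomal proteins showed how separation can mark small changes in bright genes: 11 of 44 were separated downward and 1 upward, yet the list median was -0.05. Among the separated members the largest change, that of RPL10A, was -0.27 ± 0.06, and its other probe set gave -0.46.

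**Figure D4:**
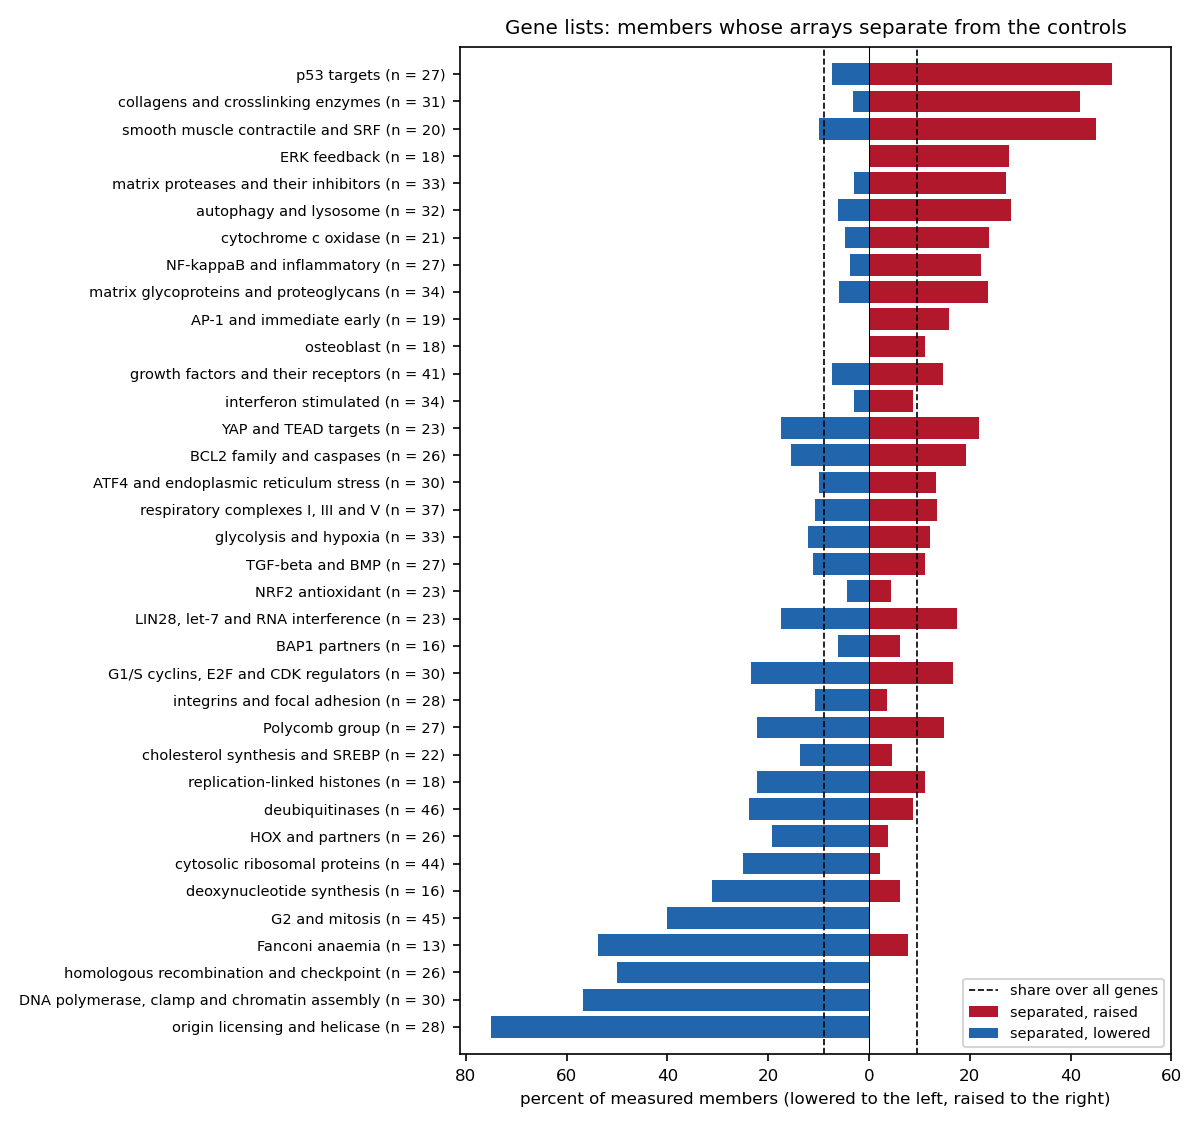
Percent of measured members of 36 gene lists whose shBAP1 arrays separate from the controls, lowered (blue, left) and raised (red, right); dashed lines mark the shares over all genes, 9.02% and 9.61%. The replication, Fanconi anaemia, recombination and mitosis lists extend farthest to the left and p53 targets, smooth muscle genes and collagens farthest to the right.

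Other genes with wide gaps belonged to none of the lists. Among lowered genes HSPB3, a small heat shock protein, read 6.87, 7.09 and 6.57 in controls and 4.72 to 4.90 in all shBAP1 arrays, a difference of -2.04 ± 0.10. The 6 shBAP1 values lay closer together than the 3 controls, but under the median of all probe sets (5.44), and RMA compresses changes of dim probe sets. The log2 difference was -1.88 ± 0.08 for the carboxylesterase CES1, -1.57 ± 0.09 for the lysosomal membrane protein LAPTM5, -2.05 ± 0.14 for the long non-coding RNA LUARIS, -1.78 ± 0.19 for RELL1, -1.68 ± 0.15 for GMFG, -1.45 ± 0.09 for the RNA export factor NXT2 and -1.34 ± 0.13 for MPHOSPH9.

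Among raised genes SPG21, named for its part in hereditary spastic paraplegia, read 9.71, 9.47 and 9.89 in controls, 11.25, 11.28 and 11.27 with shBAP1 #1 and 11.59, 11.68 and 11.66 with shBAP1 #2. Replicates lay close together in both hairpin groups, all of them clear of the controls, and SPG21 rose by 1.77 ± 0.08 (3.40-fold, adjusted p = 2.0e-06). The non-coding RNA GAPLINC rose by 2.24 ± 0.13 with the widest upward gap (1.83). SLC66A3 (1.77 ± 0.09), the actin-binding ENC1 (1.54 ± 0.09), LPCAT1, which remodels phospholipids (1.36 ± 0.06), the ubiquitin-ligase subunit GID8 (1.35 ± 0.08) and AP3M1, an adaptor of lysosomal sorting (1.31 ± 0.06), also had gaps over 1 log2 unit. Further probe sets of some of these genes gave smaller values: 0.14 for GID8, 0.73 for AP3M1 and 1.43 for ENC1, all separated. Others, not separated, gave -0.10 for SPG21 and 0.22 and 0.00 for SLC66A3.

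The size of the shared change often differed between the hairpins. Over all genes limma called a difference between shBAP1 #2 and shBAP1 #1 for 6860 (34.7%), and among separated genes for 1442 (39.1%). Of the raised genes 429 were higher with shBAP1 #2 and 266 with shBAP1 #1, and of the lowered genes 494 were lower with shBAP1 #2 and 253 with shBAP1 #1. In 1188 separated genes (32.2%) the larger change was over 2 times the smaller.

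PRR9, a proline-rich epidermal protein, read 5.57, 5.88 and 6.07 in controls, 7.47, 7.71 and 6.42 with shBAP1 #1 and 8.88, 9.54 and 9.72 with shBAP1 #2. It had the largest mean rise of all genes (2.45 ± 0.27), and the hairpins differed by 2.18 (interval 1.49 to 2.88). TOX3, a chromatin-associated HMG-box protein, differed by 2.24 in the same direction. SUGCT, a mitochondrial CoA-transferase, was raised by 2.89 with shBAP1 #1 and by 0.57 with shBAP1 #2. Among lowered genes MCUR1, a regulator of mitochondrial calcium uptake, changed by -0.33 and -2.32, and RAB11FIP1, a recycling endosome adaptor, by -0.50 and -2.16. The other MCUR1 probe set was not separated: it read 6.80 to 6.91 in controls, 7.55 to 7.82 with shBAP1 #1 and 5.61 to 6.25 with shBAP1 #2. Of the other RAB11FIP1 probe sets above the median level, one gave -0.48 and was separated and one gave -0.70 and was not.

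Some other named genes also had a further probe set at or above the median level that was not separated. Its difference was 0.22 for DUSP7, 0.15 for 2 FOSL2 probe sets, 0.11 and 0.10 for TNRC6C, -0.05 for SREBF1, -0.46 for SUZ12, 0.88 for KLF6, 0.24 and 0.16 for OGT, -1.06 and -0.74 for MKI67, and -0.01 and -0.64 for BCL2L11. Other probe sets of FOSL2 (0.68 and 0.72), TNRC6C (0.74), KLF6 (1.07 and 1.04) and BCL2L11 (-0.52, -0.66 and -0.72) were separated in the direction of the gene. So were other probe sets of OGT (0.33, 0.41 and 0.42) and MKI67 (-1.31).

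Genes called for the mean but not separated show what the array rule removed. ODAPH, of enamel formation, had a mean difference of 2.00 ± 0.12, yet its shBAP1 #1 arrays (5.22 to 5.66) lay below the controls (5.90 to 6.19) and its shBAP1 #2 arrays at 10.43 to 10.86. FLRT3, an adhesion protein, read 3.85 to 4.21 in controls, 6.34 to 6.94 with shBAP1 #1 and 3.87 to 4.11 with shBAP1 #2. MAPRE1, the microtubule plus-end protein EB1, read 11.36 to 11.49 in controls, 11.32 to 11.44 with shBAP1 #1 and 8.12 to 9.68 with shBAP1 #2. In the probe set kept for each of these 3 genes a single hairpin carried the call. A second MAPRE1 probe set gave -1.29 and was separated downward. It read 10.87 to 10.96 in controls, 10.71 to 10.74 with shBAP1 #1 and 8.07 to 9.30 with shBAP1 #2.

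**Figure D5:**
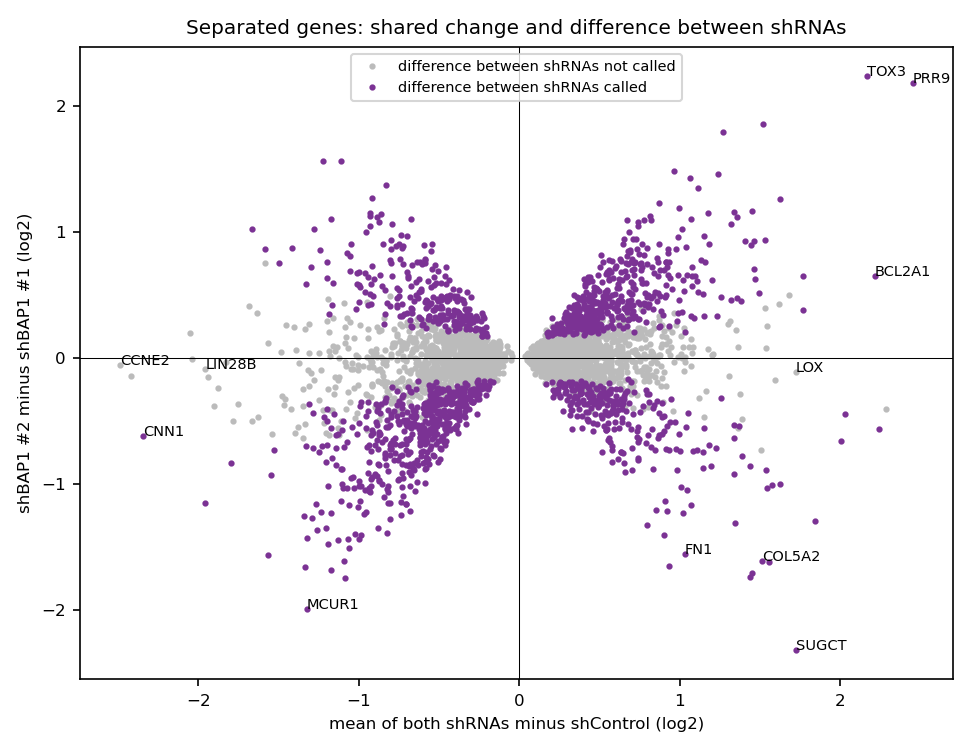
Mean of both shRNAs minus shControl (log2, horizontal) against shBAP1 #2 minus shBAP1 #1 (log2, vertical) for the 3685 separated genes; purple points are the 1442 whose difference between the hairpins was called. CCNE2, LIN28B and LOX lie near the horizontal axis, whereas TOX3 and PRR9 lie above it and SUGCT, COL5A2, FN1 and MCUR1 below it.

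Promoter windows from 250 bases before to 50 after the RefSeq start could be matched by gene identifier to 1474 separated lowered and 1563 separated raised genes. The E2F letters, TTTNNCGC on either strand, were found in 13.4% of lowered and 9.28% of raised genes, against 8.70% of 15381 measured genes and 6.90% of all 27305 promoters. In 50 genes of the origin and polymerase lists the share was 50.0%, and in 38 mitosis genes 7.89%. The CHR letters, TTTGAA, showed the reverse, 63.2% of mitosis genes and 2 of the 50 replication genes, against 11.9% of measured genes and 15.4% of all promoters. CCAAT was found in 71.1% and 56.0% of these lists and in 36.1% of measured genes and 35.7% of all promoters.

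The YY1 letters, AANATGGC, were found in 12.1% of lowered and 9.02% of raised genes, against 8.13% of measured genes and 6.82% of all promoters. Such an excess was not particular to YY1 and E2F, since other motifs were searched too. In lowered, raised and measured genes NRF1 letters (GCATGCGC) stood at 6.85%, 4.86% and 4.2%. ETS letters (CCGGAAGT) stood at 9.29%, 9.21% and 6.24%, SP1 (GGGCGG) at 67.9%, 69.2% and 58.9% and CRE (TGACGTCA) at 3.39%, 4.03% and 2.67%. Those of AP-1 (4.95%, 5.05% and 5.83%) and TEAD (10.4%, 10.8% and 11.9%) were rarer than in measured genes. The ZNF143 core seen in COX7C was found in 2.31% of lowered and 1.79% of raised genes, against 1.67% of measured genes and 1.47% of all promoters. The replication and mitosis lists were named for such genes, so these shares describe the lists and are no result of the knockdown. The median GC content of the windows was 64.3% in lowered, 66.3% in raised and 63.0% in measured genes.

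Cell type markers bore out a mesenchymal line with gaps. VIM read 13.92 to 14.17, LGALS1 13.99 to 14.53 and SPARC 12.45 to 12.97, but COL1A2, TWIST1 and NT5E stayed under the median of all probe sets (5.44). The summed signal of 10 such markers was 15.56 to 15.59 in controls and 15.44 to 15.81 in shBAP1 arrays. All 5 measured leukocyte markers and all 3 adipocyte markers lay under that median, with sums of 6.81 to 6.90 against 6.81 to 6.97 and 5.76 to 5.88 against 5.77 to 5.93. Of 7 epithelial markers 2 were above it, and the sum was 8.19 to 8.31 in controls and 7.76 to 8.05 in shBAP1 arrays. EPCAM fell by 0.59 ± 0.09. Of 5 endothelial markers 1 was above it, PECAM1, which fell by 0.78 ± 0.08, and their sum was 8.27 to 8.30 against 7.67 to 7.85. The sum of 4 neuronal markers was 8.43 to 8.68 against 8.10 to 8.32, and that of 5 smooth muscle markers 10.02 to 10.04 against 9.73 to 10.74. The part of these shifts in the results was not tested.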

How the data were processed

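Expression was measured on 9 arrays of U2OS cells, 3 per group by the sample titles. The deposited values are on a log2 scale, 1 per probe set, and the submitters' processing notes name robust multi-array averaging (RMA) as the method, without a version. RMA forces 1 intensity distribution on all arrays, so a shift of all transcripts is removed, and it compresses changes of dim probe sets. Of 54675 probe sets, 41097 had 1 gene symbol in the platform annotation, 1801 had several and 11777 were not listed. Per gene the single-symbol probe set with the highest mean was kept, with no filter on dim values. That annotation named BAP1 for 0 probe sets.

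In R 4.3.3, limma 3.58.1 (eBayes after lmFit, 6 residual and 4.33 prior degrees of freedom, two-sided) was fitted to 3 groups without covariates. P-values were Benjamini-Hochberg adjusted over 19775 genes (threshold 0.05), with 95% intervals. The model was tested on simulated data. Promoter windows were the first listed per gene identifier. Alternatives covered normalisation, probe set choice, dim genes, variance models, grouping and leaving out each array.

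Named genes were the 15 per direction with the widest gap at or above the median level (5.44), up to 4 separated members per list by size of change, the 5 per direction with the largest difference between hairpins, the 5 per direction called but not separated, genes at the edge of the rule, and well-known list members (such as E2F1, RBL1, MCM6 and CCNB2) picked after their values were seen. COX7C, CCNE2, PDGFRA, LOX, LIN28B and BCL2A1 were named too, being known from earlier results of these data. The text takes 140 genes from these. The comparison, members and 36 lists were chosen with earlier results of these data known.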

Additional observations from a re-analysis of the deposited data

Results flagged for a closer look

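The results below were set apart because the 2 hairpins, both compared with the same controls, differed from each other by limma's test of that difference (adjusted p under 0.05). Groups of 3 arrays were not searched for single deviating arrays. Over the separated genes the difference was called for 1442. Values are shBAP1 #2 minus shBAP1 #1 on the log2 scale.

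Among separated lowered genes, a lower level with shBAP1 #2 was measured at -1.99 for MCUR1, -1.66 for RAB11FIP1, -1.56 for EXO1, -1.43 for MCM6, -1.35 for MKI67, -1.14 for FANCG, -1.03 for MEIS2, -0.99 for PRDX1, -0.84 for GINS4, -0.73 for HMMR, -0.69 for TIPIN, -0.62 for CNN1, -0.60 for CDK1, -0.55 for ATP6V1A, -0.47 for UQCRC2, -0.44 for USP1 and -0.26 for EED. A lower level with shBAP1 #1 was measured at 1.02 for COX7C, 0.90 for PCGF5, 0.89 for PBX2, 0.73 for COL8A1, 0.68 for MRTFB, 0.68 for H2AX and 0.42 for CHEK1.

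Among separated raised genes, a higher level with shBAP1 #2 was measured at 2.24 for TOX3, 2.18 for PRR9, 1.16 for INHBA, 1.15 for KLF6, 0.93 for E2F5, 0.78 for RELB, 0.71 for LAMP2, 0.65 for SLC66A3, 0.65 for GADD45A, 0.65 for BCL2A1, 0.62 for ADAM12, 0.57 for TAP1, 0.48 for LPCAT1, 0.46 for CFLAR, 0.46 for TNFRSF10B, 0.45 for MDM2, 0.38 for SPG21, 0.33 for CTSA and 0.26 for PXN. A higher level with shBAP1 #1 was measured at -2.32 for SUGCT, -1.71 for TAGLN, -1.61 for COL5A2, -1.56 for FN1, -1.14 for FGF5, -1.01 for ACTA2, -0.74 for FBN2, -0.66 for COL22A1, -0.56 for GAPLINC, -0.56 for SPRY2, -0.45 for ADAM19, -0.31 for COX10, -0.27 for SESN2, -0.26 for FOSL2 and -0.21 for HOXB2.

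Among named genes called for the mean of both but not separated, the difference was 5.27 for ODAPH, -4.28 for INSIG1, -2.72 for MAPRE1, -2.70 for FLRT3, -2.16 for PDGFC, -1.83 for RRM2, -1.82 for COL3A1, -1.81 for FANCI, -1.61 for E2F2, -1.46 for UHRF1, 1.20 for DICER1, -1.06 for MCM2, 0.99 for CCND1 and -0.63 for MCM7.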

How the results depend on the processing

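The counts stayed within 1.5 times under cyclic loess, median centring, exclusion of dim genes, the mean of all probe sets, exclusion of probe sets with a shared-probe suffix, trended robust variances and array weights (4204 to 7066 genes called). They moved in the following cases. With the 6 shBAP1 arrays as 1 group, which by construction adds the difference between the hairpins to the spread, 2149 genes were called, 1151 raised and 998 lowered. A gap of at least 0.2 left 1335 separated genes, 686 raised and 649 lowered. Leaving out 1 array at a time gave 4267 (without shControl replicate 1) to 6219 called genes (without shBAP1 #2 replicate 1), 2103 to 2994 raised and 2164 to 3225 lowered. Separated genes then numbered 3835 to 4836, 1983 to 2574 raised and 1852 to 2338 lowered, more by construction since fewer arrays had to clear, and 1178 to 1717 of them differed between the hairpins.

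Of the 140 named genes, 97 kept direction and call under every alternative in which they were tested. In the fit with 1 group 38 lost the call. The direction turned for COL3A1 (-0.037), HMGA2 (0.46) and PBX2 (0.0054) without shared-suffix probe sets and for USP22 (-0.042) with the mean of all probe sets, where other probe sets of the gene were read. Of 648 list medians 64 moved by more than the spread between arrays, in 24 of 36 lists, most of them with medians near 0. Lists with larger medians moved too when shared-suffix probe sets were left out. The median shrank from 0.45 to 0.28 in p53 targets, from -0.59 to -0.37 in Fanconi anaemia genes and from 0.26 to 0.14 in smooth muscle genes. It grew from -0.45 to -0.61 in recombination and checkpoint genes and from -0.20 to -0.33 in deoxynucleotide synthesis.

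Replicate numbers were not taken to pair the samples. Deviations of same-numbered arrays correlated at 0.11, 0.20 and 0.22 between shControl and shBAP1 #1, but at -0.11 to 0.18 between shControl and shBAP1 #2 and at -0.21 to 0.04 between the hairpins, so that not every pair was over 0.1. With the replicate block 5613 genes were called, 2721 raised and 2892 lowered, 5359 of them called without it too, and 1408 separated genes differed between the hairpins. Dim genes limit what could be seen, since 4.03% of genes in the dimmest of the 4 bins were separated.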

Other observations

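In 1419 genes (7.18%) the hairpins cleared the controls on opposite sides, 667 with shBAP1 #1 above and 752 with shBAP1 #2 above, and 257 of these were called for the mean of both.

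Among neuronal markers all 4 were separated, without a common direction. RBFOX3, a neuronal splicing factor, changed by -0.88 ± 0.17 and the vesicle fusion protein SNAP25 by -0.70 ± 0.13, whereas the microtubule regulator STMN2 rose by 0.86 ± 0.15 and the vesicle protein SYP by 0.47 ± 0.12 (SE of the limma fit, adjusted p = 0.0034, 0.0019, 0.0019 and 0.012). Of 18 osteoblast genes 4 rose and 0 fell, with ALPL, alkaline phosphatase, at 4.29 to 4.52 log2 units in controls, 4.63 in each shBAP1 #1 array and 5.34 to 5.79 with shBAP1 #2. The share of separated genes ran from 13.7% on chromosome 21 to 21.8% on chromosome 17.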
